A study of Mus musculus with 24 samples.

Results

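The genes described here encode the machinery that copies DNA in S phase and the factors that start that phase, measured while bone marrow-derived macrophages (BMMs) became osteoclasts under RANKL. The list names 49 genes chosen by their known roles, and its members are the probes of the array whose single gene symbol is one of them, which gave 94 probes for the 49 genes, out of 19057 genes with a probe. Of the 49, 45 genes had a probe with signal above background and were tested among 9917 genes in all. RNA was hybridized to 24 Illumina mouse bead arrays, 6 at each of 4 times. Marrow of male C57BL/6 mice aged 5 weeks was grown with M-CSF at 30 ng/mL for 72 h, and the attached cells were taken as BMMs before RANKL (0 h) or after 24, 48 or 72 h with RANKL at 100 ng/mL, with M-CSF present throughout. All groups share the strain, sex, age and M-CSF. No later samples with M-CSF but without RANKL were analysed here, so the effects of RANKL and of longer culture cannot be told apart. The sources do not state whether replicates are different cultures or mice, and the p-values hence reflect only the spread among these samples, possibly technical.

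Before S phase, the origin recognition complex with Cdc6 and Cdt1 loads the Mcm2 to Mcm7 helicase onto replication origins, a step called licensing. Cdc7 kinase, Mcm10, Cdc45 and the GINS complex then turn the loaded helicase into a moving fork, where the primase and polymerases alpha, delta and epsilon, the sliding clamp Pcna and its loader Rfc, and the single-strand binding complex Rpa make the new strands. Ribonucleotide reductase, thymidylate synthase and thymidine kinase supply nucleotides, and chromatin assembly factor 1, Uhrf1 and Dnmt1 rebuild chromatin and its DNA methylation behind the fork. Cyclin E and the E2F transcription factors, which the Rb family holds back, switch many of these genes on at the G1 to S transition. BMMs divide under M-CSF, whereas the mature osteoclast is a multinucleated cell that forms by fusion and no longer divides.

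The arrays had median signals of 89.5 to 122 and 15781 to 17109 detected probes, and within a time the arrays correlated with Pearson's r of 0.994 to 0.998 across genes. Signals are given as log2 of the quantile-normalized intensity, and since probes bind with different strength, levels are compared only within a gene. Of the macrophage markers 5 of 6 were measured, Csf1r among them. Of 10 osteoclast markers 8 were measured, with Atp6v0d2 detected on no array and Calcr on at most 2 of 24. At each later time 7 of 8 measured osteoclast markers passed as higher than at 0 h, against 29.2%, 33.1% and 34.2% of all genes at 24, 48 and 72 h. At the same times all 11 measured neutrophil markers were lower than at 0 h, against 37.8%, 39.2% and 39.4% of all genes. The neutrophil marker Mmp8 was detected on no array, and Ly6g had no probe. The 11 markers had medians of -1.45, -1.47 and -2.88 on the log2 scale. Their summed signal was 59113 to 64319 at 0 h, 25987 to 27433 at 24 h, 23402 to 24847 at 48 h and 11067 to 12404 at 72 h. The summed signal of the 4 measured early progenitor markers was 1213 to 1555, 595 to 670, 936 to 1079 and 701 to 775 in the same order of times. Of the erythroid and megakaryocyte markers 5 of 9 were measured, all 5 lower at 24 h and 4 at each later time, with medians of -0.94, -0.99 and -1.25, and their summed signal was 6477 to 8044, 3220 to 3957, 1901 to 2383 and 1440 to 1713, with Klf1 and Gata1 detected on no array. Of the stromal markers 3 of 5 were measured, and Col1a1 and Dcn were higher at 48 h and 72 h (Dcn 4.23-fold at 72 h), with summed signals of 413 to 485, 354 to 431, 654 to 729 and 963 to 1109. Of 5 lymphoid markers 3 have a probe and none met the filter for testing, with Ms4a1 detected on 5 of 24 arrays and Cd3e and Cd3g on none. The part of these other cells in the changes below was not tested. In such bulk samples, fewer cells that express a gene and less RNA of it per cell cannot be told apart.

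Signal of the replication genes rose in the first 24 h of RANKL and was far below its starting level at 48 h and 72 h. At 24 h, 42 of the 45 members tested were higher than at 0 h, 1 was lower and 2 did not pass (adjusted p under 0.05, limma with Benjamini-Hochberg adjustment over 9917 genes), whereas 29.2% of all genes tested were higher and 37.8% lower. With signals scaled by their 75th percentile, 39 members and 22.8% of all genes were higher at 24 h and 48% of all genes were lower, with Orc1, Dnmt1 and E2f1 no longer passing, and that scaling puts the median change of all genes at -0.13. The median log2 change of the members was 0.70, against -0.05 over all genes, 28 members passed with at least a 1.5-fold rise (8.29% of all genes did), and in 40 all 6 arrays at 24 h lay above all 6 at 0 h (20.5% of all genes). At 48 h, 43 of 45 members were lower than at 0 h and 2 were higher, against 39.2% and 33.1% of all genes. The median was -1.15, with -0.03 over all genes, 40 members were at least 1.5-fold lower (12.2% of all genes) and 42 had no overlap between the arrays of 0 h and 48 h (29% of all genes). At 72 h, 43 were lower, 1 was higher and 1 did not pass, against 39.4% and 34.2% of all genes. Here the median was -1.35, with -0.03 over all genes, 40 members were at least 1.5-fold lower (13.7% of all genes) and 42 did not overlap with 0 h (29.3% of all genes). These comparisons share the arrays of 0 h and are not independent of each other.

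**Figure D1:**
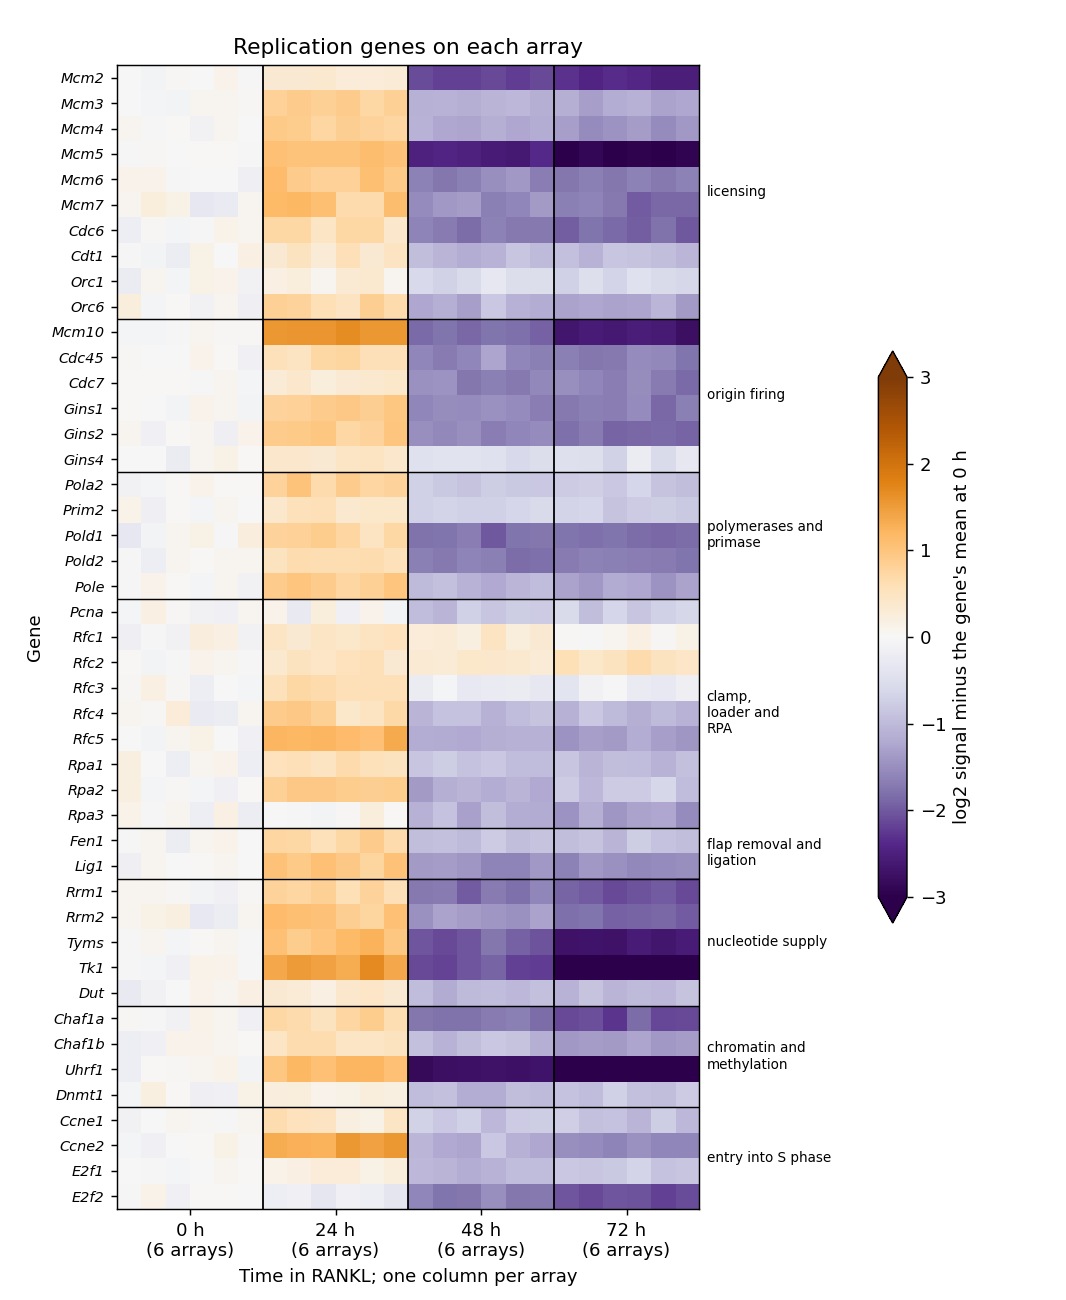
Log2 signal of each of the 45 replication genes (vertical axis, grouped by role) on each of the 24 arrays (horizontal axis, 6 columns per time), relative to the gene's mean at 0 h, with the colour scale ending at -3 and 3. The columns of 24 h are orange for most genes and those of 48 h and 72 h are purple, while Rfc1 and Rfc2 stay orange or near white.

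The step between 24 h and 48 h held the largest changes. All 45 members tested were lower at 48 h than at 24 h, against 34.6% of all genes (39.2% were higher and no member was), with a median of -1.94 on the log2 scale (0.03 over all genes), and 43 were at least 1.5-fold lower (14.1% of all genes). Among the 43, Orc1 was detected on no array at 48 h, and its fall is known only as at least 1.196-fold, which leaves 42. For Rfc1 and Rfc2 this call was marginal (adjusted p = 0.029 and 0.0461). It ended for Rfc1 without replicate 1, 3, 5 or 6 (adjusted p = 0.0701, 0.108, 0.0828 and 0.0703, limma) and for Rfc2 without replicate 2, 4 or 5 (0.145, 0.0622 and 0.153). The Rfc2 call also ended with the authors' processed values (0.0708), 75th percentile scaling (0.208), no filter (0.0857), the mean of its probes (0.0685) and its second-highest probe (0.193), and that of Rfc1 with no filter (0.0508). Neither call passed with the methods' t-test and Bonferroni adjustment. Among the 100 genes with the largest fall over this step, which are 1.01% of the genes tested, 17 were members. The first were Uhrf1 in place 4, Tk1 in place 10, Mcm5 in place 11, Mcm10 in place 15 and Tyms in place 27. Of the 100 genes with the largest rise from 0 h to 24 h, likewise 1.01%, 2 were members, Mcm10 in place 72 and Tk1 in place 94. From 48 h to 72 h the median was -0.10 (0.00 over all genes), 20 members were lower, 3 were higher and 22 did not pass, against 19.4% and 17.4% of all genes. The 20 include Pole and Ccne2, which no array detected at 72 h and for which the lowest detected signal leaves no fall to measure over this step, so that 18 remain. In that last step 4 members were at least 1.5-fold lower (2.63% of all genes), and these were Tk1, Uhrf1, Mcm10 and Tyms.

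**Figure D2:**
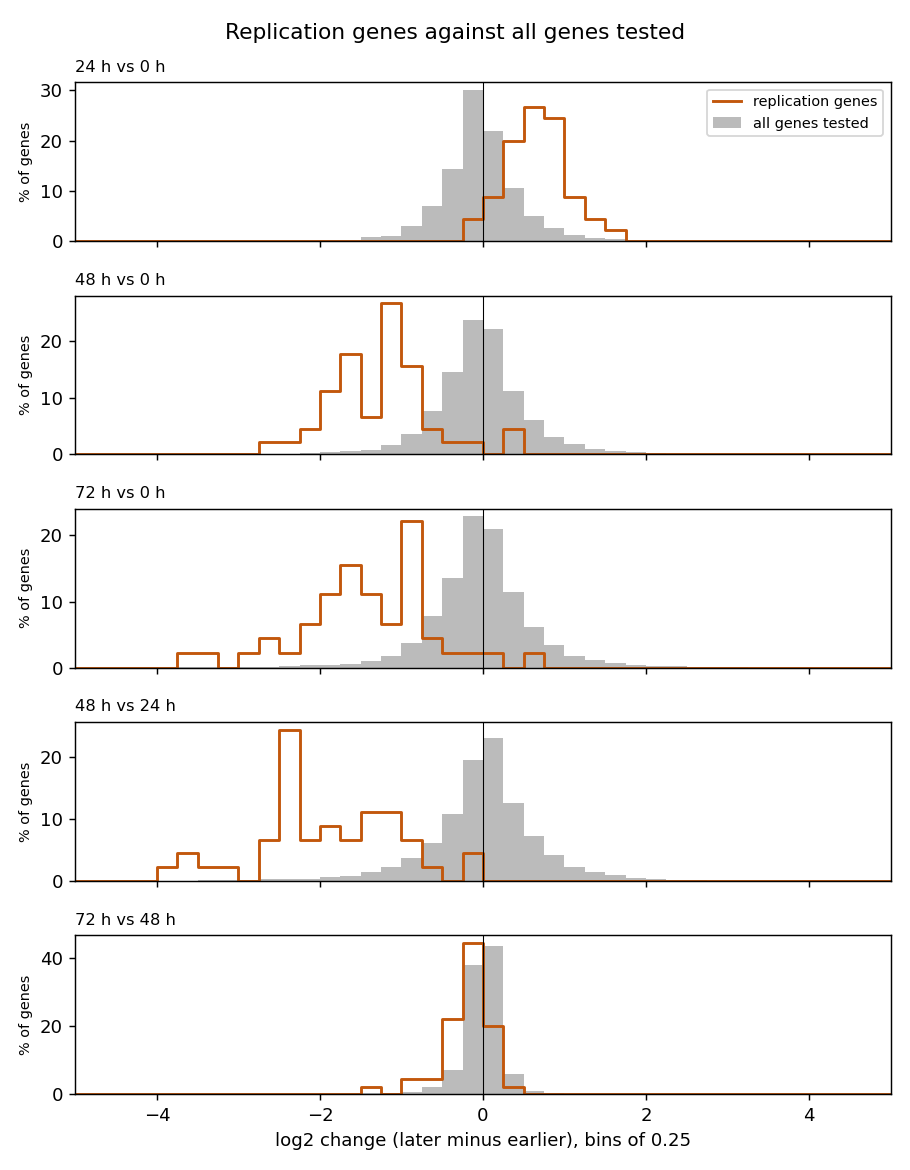
Share of genes (vertical axis, %) by log2 change (horizontal axis, bins of 0.25) in 5 comparisons, for all 9917 genes tested (grey bars) and for the 45 replication genes (orange line). The orange line lies to the right of the grey bars at 24 h against 0 h, with a median of 0.70, and to the left at 48 h against 24 h, with a median of -1.94.

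Every member is accounted for as follows. All 45 tested members met the filter (at least 3 of 6 arrays with detection p below 0.05) at 0 h and at 24 h, 43 met it at 48 h and 42 at 72 h, and 38 were detected on all 24 arrays. The 4 others had no probe that met it at any time and were left out. These were Pola1 (the catalytic subunit of polymerase alpha, detected on 0 of 24 arrays), Prim1 (the catalytic primase subunit, 2 arrays), Pole2 (a subunit of polymerase epsilon, 0 arrays with either probe) and Gmnn (geminin, the inhibitor of Cdt1, 1 array). With no filter the 49 members gave 43 higher at 24 h, 45 lower at 48 h and 45 lower at 72 h. Over the 19057 genes of that setting 15.5% were higher at 24 h, 21.5% lower at 48 h and 21.8% lower at 72 h. No background was subtracted from the signals, so fold changes of dim probes are understated, and with normexp background correction the medians became 0.73 at 24 h, -1.62 at 48 h and -1.66 at 72 h. In all, 3 members were detected on no array of a late time, and their falls are given as lower bounds against the lowest detected signal, named with their roles below. With these at their bounds the median was -1.15 at 48 h and -1.34 at 72 h.

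Promoter sequences were read for what the members share beside their roles. The RefSeq table of promoters (mouse GRCm38.p6, 250 bases before to 50 after each gene start) held a window for 40 of the 49 members. The members Mcm4, Gins1, Gins2, Gins4, Prim2, Pole, Rfc2, Gmnn and Ccne2 were not matched. Windows were searched on both strands for 4 words of the E2F binding consensus, TTTCCCGC, TTTCGCGC, TTTGCCGC and TTTGGCGC, with overlapping matches counted once. Of the 40 members 15 held at least 1 such word (37.5%), against 704 of 27025 genes in the table (2.6%), or by window 30% against 2.26%. The 27025 include genes not tested here. Among tested genes with a window, 13 members held a word and 24 did not, against 369 and 7669 genes outside the list. There were 2 such words in 5 members, 1 in 10 members and 0 in 25. The windows of the 4 tested members with the most matches, those with 2 and the largest changes, are printed with the E2F-type words in capitals on either strand, followed by that of Pcna, the textbook S phase gene, which holds none of them. Mcm7 lies at chr5:138171834-138172133 for 1 of its 2 annotated starts, Mcm6 at chr1:128359656-128359955, Mcm3 at chr1:20820263-20820562, Dnmt1 at chr9:20952574-20952873 for 1 of its 3 annotated starts, and Pcna at chr2:132253131-132253430, each on the minus strand and written 5′ to 3′ of the gene. The other windows of Mcm7 and Dnmt1 hold none of the words.
Mcm7: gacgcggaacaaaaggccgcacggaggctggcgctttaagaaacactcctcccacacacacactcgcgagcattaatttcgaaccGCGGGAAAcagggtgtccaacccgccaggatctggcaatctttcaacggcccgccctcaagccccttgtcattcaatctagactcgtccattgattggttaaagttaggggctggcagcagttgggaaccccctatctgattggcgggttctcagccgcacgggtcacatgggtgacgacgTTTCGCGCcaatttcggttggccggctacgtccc
Mcm6: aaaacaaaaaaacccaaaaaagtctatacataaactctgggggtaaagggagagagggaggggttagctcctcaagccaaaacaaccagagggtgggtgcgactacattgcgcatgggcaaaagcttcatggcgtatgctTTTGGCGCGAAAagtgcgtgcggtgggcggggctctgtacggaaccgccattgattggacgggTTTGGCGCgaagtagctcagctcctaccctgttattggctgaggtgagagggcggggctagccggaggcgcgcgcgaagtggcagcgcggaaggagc
Mcm3: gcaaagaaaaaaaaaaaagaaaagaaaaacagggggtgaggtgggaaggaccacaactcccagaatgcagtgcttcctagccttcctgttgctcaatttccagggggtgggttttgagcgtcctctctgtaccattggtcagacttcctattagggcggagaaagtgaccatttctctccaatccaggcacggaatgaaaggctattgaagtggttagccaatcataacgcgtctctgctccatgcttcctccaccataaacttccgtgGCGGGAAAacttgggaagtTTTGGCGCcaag
Dnmt1: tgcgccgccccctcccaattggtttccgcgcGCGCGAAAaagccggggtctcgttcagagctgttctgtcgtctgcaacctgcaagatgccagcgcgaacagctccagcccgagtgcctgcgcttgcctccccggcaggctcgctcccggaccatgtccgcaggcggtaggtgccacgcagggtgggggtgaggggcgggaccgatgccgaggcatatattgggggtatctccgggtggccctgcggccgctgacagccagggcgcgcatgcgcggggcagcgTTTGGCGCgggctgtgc
Pcna: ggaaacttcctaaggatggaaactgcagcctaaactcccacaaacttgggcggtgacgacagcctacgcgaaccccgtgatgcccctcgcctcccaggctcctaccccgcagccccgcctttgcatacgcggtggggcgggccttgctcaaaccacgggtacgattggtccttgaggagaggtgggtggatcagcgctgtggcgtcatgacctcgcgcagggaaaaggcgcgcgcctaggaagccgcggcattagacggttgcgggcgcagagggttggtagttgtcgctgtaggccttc

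In Mcm6 the first capital stretch holds 2 overlapping words, and in Mcm3 both words lie after the start site. Tested members with an E2F-type word (13) had a median log2 change of 0.74 at 24 h, -1.48 at 48 h and -1.69 at 72 h against 0 h. In the 24 tested members whose windows held none, the medians were 0.65, -1.14 and -1.34. Outside the list, 369 tested genes with such a word had medians of 0.06, -0.10 and -0.06, and 7669 without had -0.06, -0.03 and -0.03. A further pair of words was searched on both strands, the CCAAT box bound by NF-Y, spelled CCAAT, and TTTGAA, the core of the CHR element of late cell cycle genes. CCAAT was in 60% of the 40 members and 41.1% of all genes in the table, and TTTGAA in 17.5% and 20.2%. In 28 mitosis genes with a window the shares were 10.7% for the E2F-type words, 78.6% for CCAAT and 71.4% for TTTGAA. A word in a window is a description of its letters and says nothing of binding, and the base composition of the windows was not compared.

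Licensing genes rose and fell as a group. All 10 tested of 11 members, the Mcm2 to Mcm7 helicase subunits with Cdc6, Cdt1, Orc1 and Orc6, were higher at 24 h (1.15-fold to 2.07-fold) and lower at 48 h and at 72 h, with medians of 0.76, -1.33 and -1.56. Mcm5, a subunit of the helicase ring, read 12.29, 12.34 and 12.37 at 0 h as the lowest, median and highest log2 signal, 13.35, 13.37 and 13.45 at 24 h, 9.73, 9.87 and 9.97 at 48 h, and 9.23, 9.37 and 9.46 at 72 h. No array of one time overlapped with another time. Its log2 changes against 0 h were 1.05, -2.48 and -2.98 (SE 0.05 each, n = 6 against 6, adjusted p = 9.47e-21, 2.31e-32 and 5.78e-35), which is 2.07-fold up, then 5.59-fold and 7.89-fold down. Mcm2, another subunit of the ring, read 10.59, 10.67 and 10.80 at 0 h, 10.94, 10.99 and 11.03 at 24 h, 8.48, 8.53 and 8.58 at 48 h, and 8.15, 8.27 and 8.36 at 72 h. Its arrays also kept apart at the 4 times, with a small rise of 1.24-fold at 24 h and falls of 4.45-fold at 48 h and 5.38-fold at 72 h (log2 changes of 0.31, -2.15 and -2.43, SE 0.05).

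The other helicase subunits fell less. Mcm3, Mcm4, Mcm6 and Mcm7 rose 1.77-fold to 1.97-fold by 24 h and were 2.30-fold to 3.46-fold below 0 h at 72 h. Cdc6, the loader of the helicase, was 1.54-fold higher, then 3.27-fold and 3.70-fold lower, and Cdt1, its partner in loading, was 1.34-fold higher, then 2.02-fold and 1.95-fold lower. At 72 h Cdc6 was detected on 4 of 6 arrays. Orc1, the largest subunit of the origin recognition complex, was dim. It was detected on 3 arrays at 0 h, on 6 at 24 h and on none later, and its fall from 0 h was at least 1.04-fold by 48 h and at least 1.03-fold by 72 h. Orc6, the smallest subunit of that complex, was 1.62-fold higher at 24 h, then 2.20-fold and 2.37-fold lower.

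Among the origin firing genes, Mcm10 had the largest rise of any tested member at 24 h. All 6 of these genes were higher at 24 h and lower at 48 h and 72 h, with medians of 0.75, -1.56 and -1.67. Mcm10, which helps to convert the loaded helicase into an active one, read 10.16, 10.22 and 10.30 at 0 h, 11.78, 11.80 and 11.90 at 24 h, 8.29, 8.39 and 8.46 at 48 h, and 7.48, 7.63 and 7.67 at 72 h. The 4 times did not overlap, and Mcm10 was still falling at the end, 1.71-fold from 48 h to 72 h (adjusted p = 3.63e-16). Its log2 changes against 0 h were 1.59, -1.84 and -2.62 (SE 0.05), or 3.01-fold up, then 3.58-fold and 6.14-fold down. The second-brightest Mcm10 probe, detected on 15 of 24 arrays, gave 1.43, -1.36 and -1.76. A dimmer kept one, annotated to a cDNA clone and detected on 6 arrays, gave -0.07, -0.50 and -0.45. Gins2, a subunit of the GINS complex of the moving helicase, read 9.91, 10.10 and 10.17 at 0 h, 10.76, 10.97 and 11.04 at 24 h, 8.38, 8.50 and 8.58 at 48 h, and 8.14, 8.18 and 8.36 at 72 h. Again no times overlapped, with log2 changes of 0.88, -1.55 and -1.85 (SE 0.06). Cdc7, the kinase that fires licensed origins, rose 1.27-fold and was 3.03-fold and 3.11-fold lower later, whereas Gins4, another GINS subunit, had the smallest falls of the group, 1.38-fold and 1.37-fold.

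**Figure D3:**
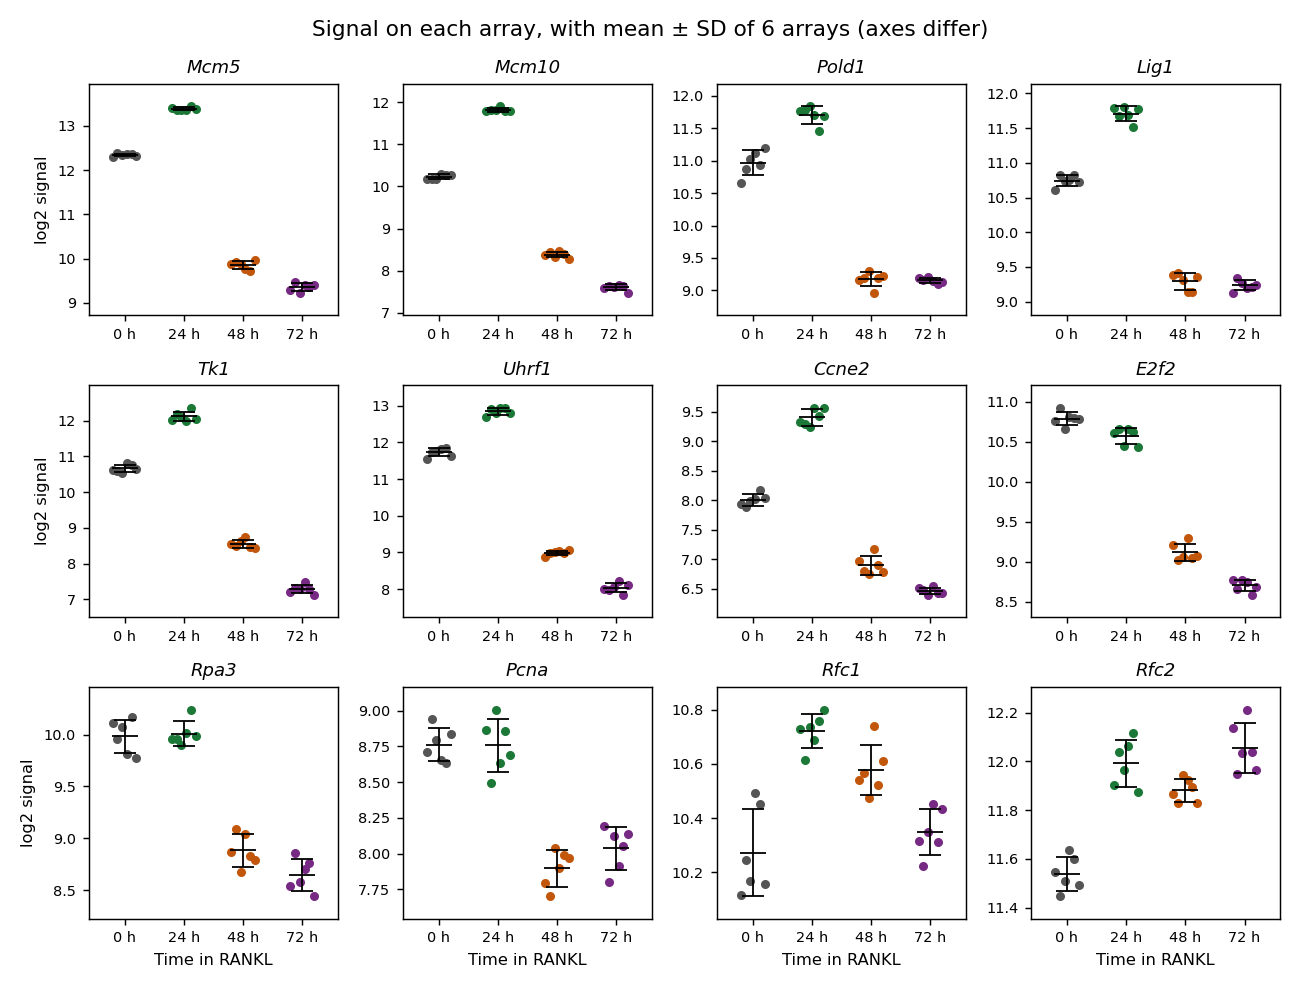
Log2 signal (vertical axes, which differ between panels) on each of the 6 arrays at 0, 24, 48 and 72 h (points, horizontal axis), with the mean ± SD, for 12 replication genes. Mcm5, Mcm10, Tk1 and Uhrf1 separate at all 4 times, Rpa3 and Pcna overlap between 0 h and 24 h, and Rfc2 lies above its 0 h level at each later time.

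Of the polymerase and primase genes 5 of 8 were tested, and all 5 were higher at 24 h and lower at 48 h and 72 h, with medians of 0.74, -1.04 and -1.30. Pold1, the catalytic subunit of polymerase delta, which makes the lagging strand, read 10.66, 10.98 and 11.20 at 0 h, 11.46, 11.73 and 11.84 at 24 h, 8.96, 9.19 and 9.30 at 48 h, and 9.09, 9.15 and 9.21 at 72 h. Only 48 h and 72 h overlapped, and its log2 changes against 0 h were 0.74, -1.80 and -1.82 (SE 0.07). Pold2, the second subunit of the same polymerase, read 9.95, 10.15 and 10.20 at 0 h, 10.63, 10.74 and 10.77 at 24 h, 8.28, 8.43 and 8.51 at 48 h, and 8.35, 8.43 and 8.49 at 72 h. Its pattern was alike, with log2 changes of 0.60, -1.72 and -1.69 (SE 0.05) and an overlap of 48 h with 72 h alone. Pole, the catalytic subunit of polymerase epsilon on the leading strand, rose 1.86-fold by 24 h, was 2.06-fold below 0 h at 48 h, and at 72 h, where no array detected it, was at least 2.02-fold lower. Pola2 and Prim2, the regulatory subunits of polymerase alpha and primase, fell least here, 1.75-fold and 1.69-fold at 72 h.

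The clamp, clamp loader and Rpa group was the most uneven. Of its 9 genes 7 rose by 24 h and 2 did not pass, at 48 h 7 lay below and 2 above 0 h, and at 72 h 7 lay below, 1 above and 1 did not pass, with medians of 0.55, -0.88 and -0.83. Rfc1 and Rfc2, the large subunit and a small subunit of the loader that opens the Pcna ring, were the members above their 0 h level at 48 h. Rfc2 read 11.45, 11.53 and 11.64 at 0 h, 11.87, 12.002 and 12.12 at 24 h, 11.83, 11.88 and 11.94 at 48 h, and 11.95, 12.04 and 12.21 at 72 h. All arrays of the 3 later times lay above those of 0 h, with log2 changes of 0.45, 0.34 and 0.52 (SE 0.05, adjusted p = 5.81e-10, 1.88e-07 and 1.83e-11). The 4 probes of Rfc2 all gave rises, of 0.40 to 0.91 at 24 h and 0.34 to 0.80 at 48 h on the log2 scale. Rfc1 read 10.12, 10.21 and 10.49 at 0 h, 10.62, 10.73 and 10.80 at 24 h, 10.47, 10.55 and 10.74 at 48 h, and 10.23, 10.33 and 10.45 at 72 h. Only its 24 h arrays were clear of those at 0 h, and its log2 changes were 0.45, 0.30 and 0.08 (SE 0.06, adjusted p = 3.09e-08, 2.52e-05 and 0.251).

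The other loader subunits differed from these. Rfc3 and Rfc4, small subunits of the loader, were 1.17-fold and 1.96-fold lower at 48 h. The second Rfc4 probe, detected on 15 of 24 arrays, gave smaller log2 changes of 0.32, -0.31 and -0.26 at 24, 48 and 72 h. The Rfc3 arrays of 48 h and 72 h overlapped with those of 0 h, and with the authors' processed values its falls did not pass (adjusted p = 0.0545 and 0.075). The Rfc3 probe was dim, is annotated to a cDNA clone and was detected on 23 of 24 arrays. Rfc5, the remaining small subunit, had the largest changes of the group at 24 h and 72 h but depended on the probe. Its brightest probe read 8.94, 9.05 and 9.23 at 0 h, 10.13, 10.26 and 10.42 at 24 h, 7.85, 7.92 and 7.95 at 48 h, and 7.62, 7.71 and 7.89 at 72 h, with log2 changes of 1.19, -1.15 and -1.34 (SE 0.05) and an overlap of 48 h with 72 h alone. A second Rfc5 probe, annotated to a cDNA clone and detected on all 24 arrays, gave -0.12, -0.09 and 0.17, and another, detected on 7 arrays, gave 0.41, -0.03 and 0.03. The cause of the disagreement was not tested.

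Pcna and Rpa3 did not follow the rise at 24 h. Pcna, the sliding clamp and a common marker of S phase, read 8.63, 8.75 and 8.94 at 0 h, 8.50, 8.77 and 9.01 at 24 h, 7.70, 7.93 and 8.04 at 48 h, and 7.80, 8.09 and 8.19 at 72 h. The arrays of 0 h and 24 h overlapped, as did those of 48 h and 72 h. Its log2 change at 24 h was -0.0031 (95% interval -0.16 to 0.15, adjusted p = 0.974), with falls of 1.82-fold (48 h) and 1.65-fold (72 h). Rpa3, the smallest subunit of the single-strand binding complex, read 9.77, 10.02 and 10.17 at 0 h, 9.90, 9.97 and 10.24 at 24 h, 8.67, 8.85 and 9.09 at 48 h, and 8.44, 8.64 and 8.85 at 72 h. Its change at 24 h was 0.02 (95% interval -0.13 to 0.18, adjusted p = 0.788), with falls of 2.14-fold and 2.53-fold later. The partners of Rpa3 did rise at 24 h, Rpa1 by 1.46-fold and Rpa2 by 1.86-fold. Dimmer kept Rpa2 probes, detected on 13 and 5 of 24 arrays, gave smaller log2 changes of 0.24 and 0.12 at 24 h. Each of Pcna and Rpa3 was measured by 1 kept probe.

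Both genes that finish the lagging strand moved with the majority. Lig1, the ligase that seals Okazaki fragments, read 10.60, 10.74 and 10.83 at 0 h, 11.51, 11.74 and 11.80 at 24 h, 9.14, 9.34 and 9.41 at 48 h, and 9.13, 9.23 and 9.34 at 72 h. Its log2 changes were 0.96, -1.46 and -1.51 (SE 0.06), and only 48 h and 72 h overlapped. The 2 next brighter Lig1 probes changed the same way, and the dimmest, detected on all 24 arrays, gave -0.06, -0.09 and -0.06. Fen1, the flap endonuclease that trims the fragments, read 11.82, 12.05 and 12.14 at 0 h, 12.58, 12.74 and 12.93 at 24 h, 11.02, 11.09 and 11.25 at 48 h, and 10.96, 11.11 and 11.26 at 72 h. It rose 1.64-fold and was then 1.88-fold and 1.89-fold lower than at 0 h, with log2 changes of 0.72, -0.91 and -0.91 (SE 0.06).

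The nucleotide supply genes had the largest median changes of the role groups, 0.99 at 24 h, -1.75 at 48 h and -2.03 at 72 h, and all 5 were higher, then lower, than at 0 h. Tk1, the thymidine kinase of the salvage pathway, read 10.54, 10.63 and 10.80 at 0 h, 11.99, 12.07 and 12.36 at 24 h, 8.45, 8.52 and 8.75 at 48 h, and 7.14, 7.28 and 7.47 at 72 h. The 4 times did not overlap, and the log2 changes were 1.46, -2.10 and -3.37 (SE 0.06), so that Tk1 was 10.35-fold below its starting level at 72 h. With its brightest probe it fell 2.41-fold from 48 h to 72 h, the largest fall of a member over that step. The second-brightest Tk1 probe, detected on 17 of 24 arrays, gave smaller log2 changes of 1.01, -1.005 and -1.27 against 0 h. From 48 h to 72 h that probe changed by -0.27. Tyms, the thymidylate synthase, read 10.69, 10.75 and 10.81 at 0 h, 11.64, 11.79 and 12.002 at 24 h, 8.64, 8.72 and 9.003 at 48 h, and 8.04, 8.10 and 8.19 at 72 h. Its times did not overlap either, with log2 changes of 1.06, -1.99 and -2.64 (SE 0.06). The second-brightest Tyms probe, detected on 18 of 24 arrays, gave 0.78, -1.49 and -1.69. Dimmer kept Tyms probes, detected on 6 and 4 arrays, gave -0.14 and -0.18 at 72 h. Rrm1 and Rrm2, the large and small subunits of ribonucleotide reductase, were 4.07-fold and 3.68-fold lower at 72 h, and Dut, which clears dUTP, was 1.98-fold lower. At 72 h Rrm2 was detected on 4 of 6 arrays.

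Of the genes that restore chromatin and its methylation, Uhrf1 had the largest fall of any tested member. All 4 were higher at 24 h and lower at 48 h and 72 h, with medians of 0.61, -1.39 and -1.72. Uhrf1, which reads hemimethylated DNA and recruits Dnmt1, read 11.56, 11.75 and 11.85 at 0 h, 12.70, 12.85 and 12.94 at 24 h, 8.88, 8.998 and 9.05 at 48 h, and 7.85, 8.03 and 8.22 at 72 h. The times did not overlap, and the log2 changes were 1.12, -2.74 and -3.69 (SE 0.06), or 2.17-fold up, then 6.67-fold and 12.9-fold down. Dnmt1, the maintenance methyltransferase itself, changed far less, 1.14-fold up at 24 h with overlapping arrays, then 2.03-fold and 1.84-fold down. Chaf1a, the large subunit of chromatin assembly factor 1, read 10.05, 10.18 and 10.31 at 0 h, 10.68, 10.87 and 11.05 at 24 h, 8.34, 8.40 and 8.52 at 48 h, and 7.89, 8.06 and 8.34 at 72 h, with log2 changes of 0.69, -1.76 and -2.10 (SE 0.06). No array of one time overlapped with another. Its partner Chaf1b was 1.44-fold higher, then 1.96-fold and 2.55-fold lower.

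The genes of entry into S phase included the single member that was lower at 24 h. E2f2, one of the activating E2F factors, read 10.67, 10.79 and 10.92 at 0 h, 10.44, 10.61 and 10.66 at 24 h, 9.03, 9.07 and 9.30 at 48 h, and 8.59, 8.72 and 8.77 at 72 h. Each time lay below the one before it with no overlap, and the log2 changes were -0.22, -1.67 and -2.09 (SE 0.06, adjusted p = 0.000743, 8.09e-25 and 5.95e-28). With its second probe the change at 24 h was -0.09 and did not pass (adjusted p = 0.145), and it did not pass with the methods' t-test and Bonferroni adjustment. E2f1, the best known activating E2F, was 1.15-fold higher at 24 h, then 2.06-fold and 1.77-fold lower. Ccne2, one of the cyclins E, read 7.88, 8.01 and 8.16 at 0 h, 9.25, 9.38 and 9.56 at 24 h, 6.75, 6.85 and 7.17 at 48 h, and 6.40, 6.45 and 6.54 at 72 h. The arrays of 0 h and 24 h did not overlap, and it was 2.63-fold higher at 24 h (log2 change of 1.40, SE 0.06), the largest rise of this group. Ccne2 was detected on 1 of 6 arrays at 48 h and on none at 72 h, so most readings of those times were below detection, and at 72 h it was at least 1.95-fold lower than at 0 h. Ccne1, the other cyclin E, rose 1.33-fold and was later 1.75-fold and 1.86-fold lower.

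**Figure D4:**
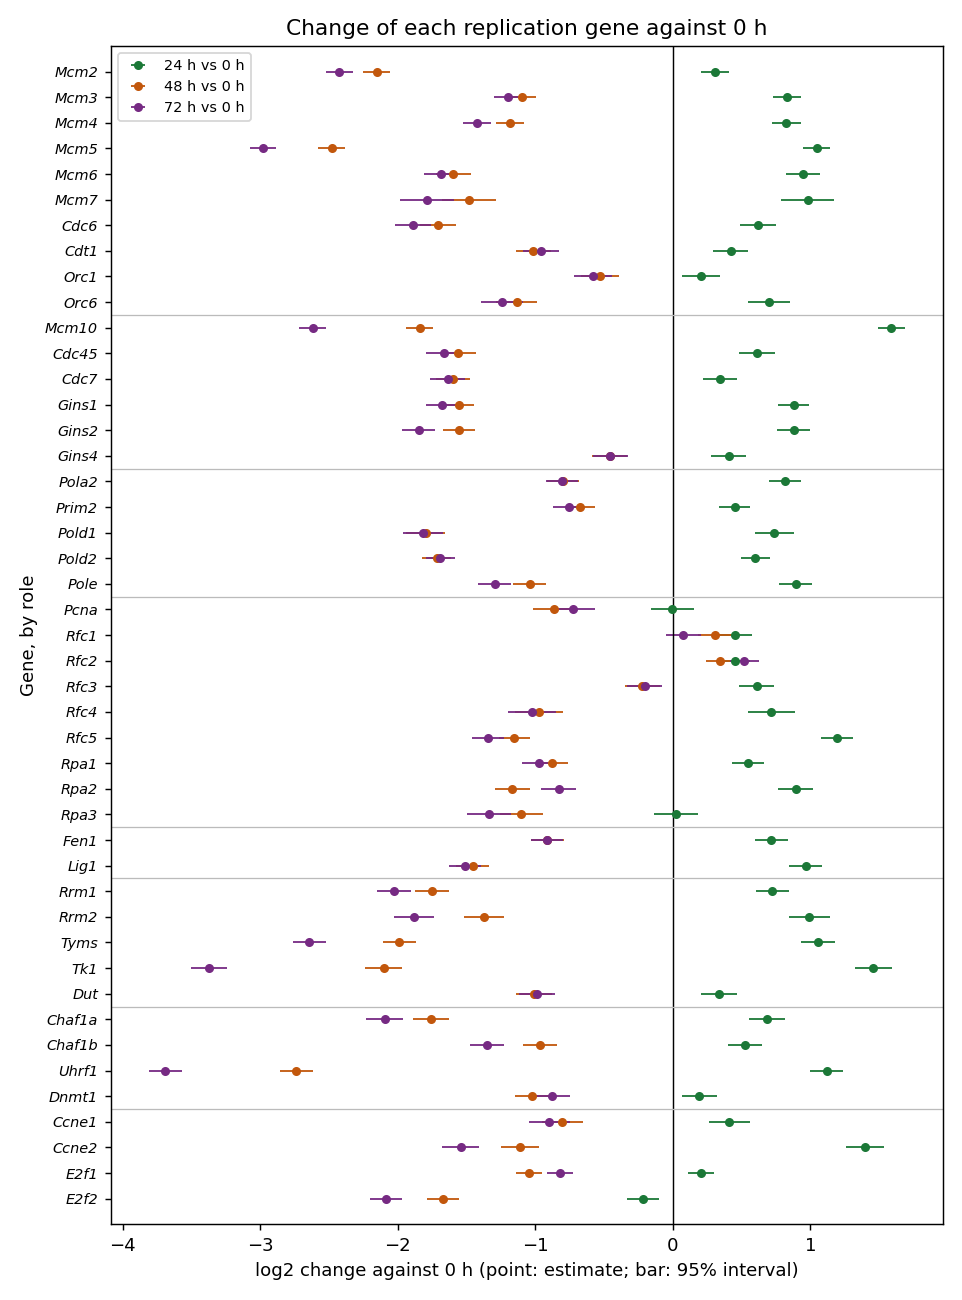
Log2 change against 0 h (horizontal axis, point and 95% interval from limma) of each of the 45 replication genes (vertical axis, by role) at 24 h (green), 48 h (orange) and 72 h (purple). Points at 24 h lie right of 0 except that of E2f2 and those of Pcna and Rpa3, which lie at 0 within their intervals, and the later points lie left of 0 except those of Rfc1 and Rfc2, with Uhrf1 farthest at -3.69.

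Rpa2, E2f1 and Rfc2 were the 3 members higher at 72 h than at 48 h. Rpa2, the middle subunit of Rpa, read 7.44 to 7.74 at 48 h and 7.79 to 8.17 at 72 h without overlap, a log2 change of 0.34 (SE 0.06, adjusted p = 3.05e-05), and remained below its 0 h level of 8.68 to 8.998. E2f1 changed by 0.22 (SE 0.05, adjusted p = 0.000163) and Rfc2 by 0.17 (SE 0.05, adjusted p = 0.00576). These small rises depended on the setting. With median scaling E2f1 and Rfc2 did not pass (adjusted p = 0.139 and 0.227), nor with the authors' processed values (0.0667 and 0.119), Rfc2 did not with 75th percentile scaling (0.0532), and Rpa2 did not with its second-highest probe (0.631). For 16 members with over 1 kept probe, the 28 further probes had the sign of the main probe in 25 cases at 24 h, 28 at 48 h and 26 at 72 h against 0 h.

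Further replication genes had smaller medians in the same directions, and mitosis genes larger ones. Of 41 further replication and fork genes 34 were tested, and at 24 h 26 rose and 2 fell, at 48 h 4 were above and 24 below 0 h, and at 72 h 6 were above and 25 below, with medians of 0.34, -0.49 and -0.54. Clspn, encoding the checkpoint adaptor claspin, had the largest change among them, a 2.20-fold rise by 24 h and a level 4.95-fold below 0 h at 72 h. Chtf18, of an alternative clamp loader, was 3.18-fold lower at 72 h, and Asf1b, a histone chaperone, 3.12-fold lower. Of 32 mitosis genes 24 were tested, and 23 were higher at 24 h, 23 lower at 48 h and 23 lower at 72 h, with medians of 0.85, -1.62 and -2.17. For both lists the shares of all genes higher than at 0 h were 29.2%, 33.1% and 34.2% at these times. The shares lower were 37.8%, 39.2% and 39.4%. Between 48 h and 72 h 20 of the 24 mitosis genes were lower and 1 higher, against 19.4% and 17.4% of all genes. The median of the 24 was -0.67, beside the -0.10 of the replication genes. The mitotic kinase gene Plk1, the survivin gene Birc5 and the anillin gene Anln were 14.5-fold, 12.6-fold and 10.6-fold lower at 72 h than at 0 h.

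The E2F and Rb family and the kinases and inhibitors of the G1 to S step were mixed. Of 19 listed genes 15 were tested, of which 7 rose and 4 fell by 24 h, 5 were above and 9 below 0 h at 48 h, and 5 above and 8 below at 72 h, with medians of 0.02, -0.36 and -0.26. Among all genes, 29.2% were higher and 37.8% lower at 24 h, 33.1% and 39.2% at 48 h, and 34.2% and 39.4% at 72 h. The share of the list above 0 h, 33.3% at both 48 h and 72 h, was near that of all genes. Its share below 0 h, 60% at 48 h and 53.3% at 72 h, was larger than that of all genes. At 24 h 46.7% of the list were higher and 26.7% lower. Cdkn1c, the CDK inhibitor p57, had the largest change among the 15 and ran opposite to the replication genes. It fell 2.54-fold by 24 h and then stood 1.39-fold (48 h) and 6.70-fold (72 h) above 0 h, while Cdkn1a, the inhibitor p21, was 2.42-fold and 2.10-fold lower at these later times. Cdc25a, the phosphatase that activates Cdk2, was 2.34-fold and 2.09-fold lower at the same times.

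**Figure D5:**
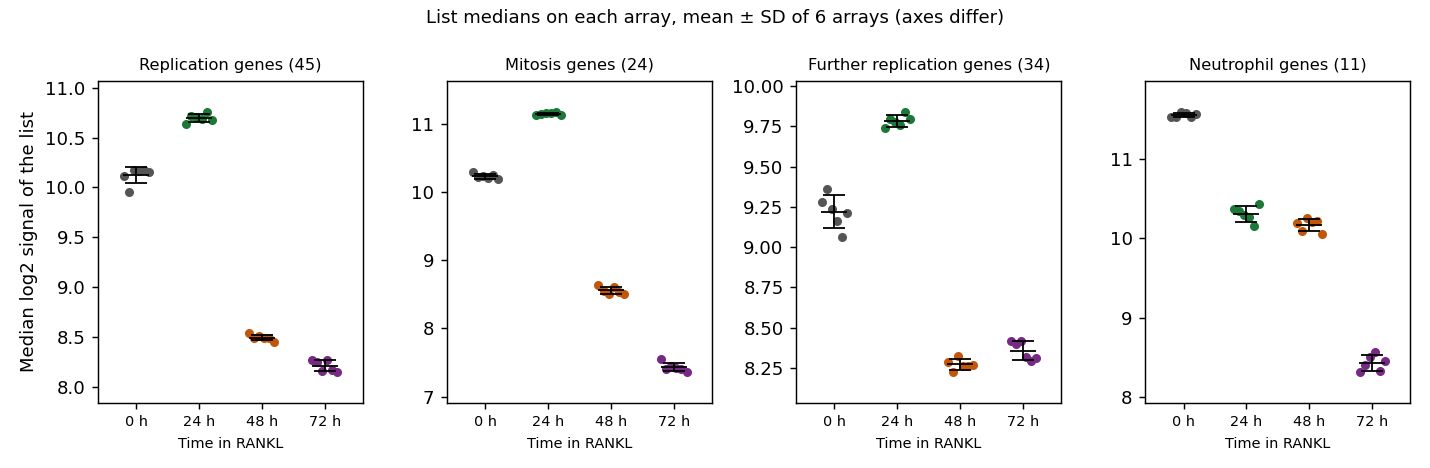
Median log2 signal (vertical axes, which differ between panels) on each array (points) at each time (horizontal axis), with the mean ± SD of 6 arrays, for the 45 replication genes, 24 mitosis genes, 34 further replication genes and 11 neutrophil markers. The first 3 lists are highest at 24 h and lower at 48 h and 72 h than at 0 h, with replication gene medians of 9.96 to 10.17 at 0 h and 8.15 to 8.27 at 72 h, whereas the neutrophil markers are lower at 24 h than at 0 h.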

How the data were processed

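Transcript levels of BMMs at 0, 24, 48 and 72 h of RANKL were measured on 24 Illumina bead arrays, grouped by the times in their labels. The authors extracted the signal intensity of each probe with Illumina GenomeStudio v2011.1 and deposited it without normalization between arrays. The deposited detection p-value of each probe on each array sets its signal against background probes. The authors also deposited processed values on a log2 scale, which served as an alternative. The methods name a log transformation and quantile normalization, yet the medians of these columns differed (1.90 to 1.99), and their scaling is not known further. The methods and the labels name different labelling kits.

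Here log2 intensities were quantile normalized over the 24 arrays with limma 3.58.1 in R 4.3.3. A probe was kept if at least 3 of 6 arrays of any time had a detection p below 0.05 (18346 of 45281 probes), and 15558 kept probes carry 1 gene symbol in the platform annotation. Each of 9917 genes was represented by its brightest kept probe. The means of the 4 times were compared in limma by moderated contrasts (eBayes, trend) on 20 residual degrees of freedom. Adjustment followed Benjamini and Hochberg across all genes of a comparison, with a threshold of 0.05. Intervals of 95% use the 20 residual degrees of freedom. A probe detected on no array of a time has a bound, set per array by the higher of its own signal and the lowest signal of a detected probe. The number of arrays limits the precision. The fit was tested on simulated data.

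The members, gene lists, roles and tests were chosen with earlier results of these data known. Described array by array are the 2 members of each role with the largest change against 0 h, those called against the majority, and Pcna, for which the values were added afterwards. Rpa2, E2f1 and the other members given by fold were chosen with their values seen. Up to 3 genes of the further lists were named by their largest change. Alternatives were the processed values, normexp background correction, scaling by the 75th percentile or median, a strict filter (all 6 arrays) or none, a gene's second-highest probe or the mean of its kept probes, the methods' t-test with either adjustment, the 12 arrays compared, the replicate number as a block, a 1.5-fold rule, and each replicate number left out. Leaving out replicate 2 at 0 h was added after the data were seen. Figures were drawn with matplotlib 3.10.9.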

Additional observations from a re-analysis of the deposited data

Results flagged for a closer look

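In 80 groups of 6 arrays looked at (each gene described array by array at each time, and the median of the members), 3 had an array standing apart from the rest, where chance gives about 1 in 20. For Mcm10 at 24 h replicate 4 read 11.90 against 11.78 to 11.82 in the other arrays, a gap of 0.697 of the whole range. For Rpa3 at 24 h replicate 5 read 10.24 against 9.90 to 10.01, a gap of 0.664 of the range. The median of the members at 0 h was 9.96 in replicate 2 and 10.12 to 10.17 in the others, a gap of 0.747 of the range, and that array was the lowest of 6 in 6 members and the highest in 11. Without this array, left out after the data were seen, 42 members were higher at 24 h and 43 lower at 48 h and at 72 h.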

How the results depend on the processing

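Of 200 recounts of the members higher or lower, 185 stayed within 1.5 times the value given. With the 1.5-fold rule 0 members were lower at 24 h, 0 higher at 48 h, 0 higher at 72 h, and 0 higher and 4 lower from 48 h to 72 h. With the methods' t-test and Bonferroni adjustment 26 were higher and 0 lower at 24 h, against 10.6% and 12.5% of all genes. That test gave 1 higher at 48 h (13.3% of all genes). From 48 h to 72 h it gave 0 higher and 6 lower (2.21% and 4.16% of all genes). From 24 h to 48 h Rfc1 and Rfc2 did not pass with it. From 48 h to 72 h 1 was higher with the authors' processed values and 1 with median scaling. With no filter 2 were higher at 72 h (18.7% of all genes). With the second-highest probe 0 fell by 24 h and 2 were higher at 72 h. Rfc5 turned direction with that probe, to -0.12 at 24 h and 0.17 at 72 h against 0 h, 0.037 from 24 h to 48 h and 0.26 from 48 h to 72 h, and with the mean of its probes to 0.043 from 48 h to 72 h. The cause was not tested. Of 4275 recomputed changes of single members 4186 kept their direction and side of the threshold, 76 no longer passed, 8 newly passed and 5 turned. Leaving out each replicate number gave 42 higher at 24 h and 43 lower at 48 h and at 72 h each time. From 48 h to 72 h 18 to 20 were lower in these fits. From 24 h to 48 h Rfc1, Rfc2 or both no longer passed in each of them, so that fewer than 45 were lower, at the fewest 43. The labels tie the replicate numbers to no batch or animal. Deviations from the group means correlated above 0.1 in 25 of 36 same-numbered pairs, not in all (r of -0.21 to 0.49, mean 0.169, against a mean of -0.031 for different numbers), and 13 of 24 arrays correlated best with their own number, a hint from the data only, so the numbers were not taken as pairs. With the replicate block 42 were higher at 24 h, and 4 in place of 3 were higher from 48 h to 72 h, with Dnmt1 added (adjusted p = 0.0307). Medians of the members ranged from 0.58 to 0.73 at 24 h, -1.62 to -1.05 at 48 h and -1.66 to -1.22 at 72 h. Signal over background limits Orc1, Pole and Ccne2 most at the late times. It also limits Cdc6 and Rrm2, detected on 4 of 6 arrays at 72 h, Rfc3, on 5 at 72 h, and Dut, on 5 at 48 h.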
